A study of Mus musculus with 11 samples.

Results

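CDX2 peaks called in only 1 of the 2 wild-type libraries of mouse jejunal villi, away from HNF4A and in chromatin carrying H3K4me2, are described here. A peak was included where it overlapped no peak of the other wild-type CDX2 list and no wild-type HNF4A peak, and where at least 1 nucleosome of the wild-type H3K4me2 list was centred within 1 kb of its centre. Of 12121 peaks of library 1, 3443 met the rule, and of 7441 peaks of library 2, 663 did, together 4106 of 19562. The peaks were therefore chosen by their wild-type CDX2, HNF4A and H3K4me2 calls, and those values are given as a description. What the rule did not use are the calls in the knockout libraries.

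CDX2 is a homeodomain transcription factor that sets and maintains the identity of the intestinal epithelium. HNF4A is a nuclear receptor that binds many enhancers and promoters of enterocytes, the absorptive cells covering the villus. H3K4me2, dimethylation of lysine 4 on histone H3, marks active and poised promoters and enhancers, where nucleosomes often flank the stretch of DNA held by transcription factors. A ChIP-seq peak is a stretch where reads from the immunoprecipitated DNA exceed a threshold.

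The study asked what CDX2 does at enhancers of adult villus cells. Villus epithelium was released from the jejunum of mice on a mixed 129xC57BL6 background with EDTA and separated from crypts by filtration. CDX2 was mapped in wild type (2 libraries) and in Hnf4a knockout (1 library), and HNF4A in wild type and Cdx2 knockout (1 library each). H3K4me2 nucleosomes were mapped with 1 library each in wild type, Cdx2 knockout, Hnf4a knockout and 2 double knockouts. The labels of the double knockouts contradict themselves on the other deleted gene, and every label has Cdx2 deleted, so these libraries are named by their titles, Cdx2-Cdx1 and Cdx2-Hnf4a. Libraries were made from pooled ChIP DNA. The labels used here give no age for the mice, no driver or timing of the deletions and no share of cells recombined. They also leave unsaid whether separate animals went into the pair of CDX2 libraries.

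The lists carry no read totals, so the depth is unknown. The CDX2 lists began at a score of 50. They held 12121 and 7441 peaks with median scores of 70.42 and 57.99 and median widths of 570 and 255 bp, and the Hnf4a knockout list held 5768 peaks (57.67, 248 bp). The Hnf4a knockout H3K4me2 list stood apart from the others: it held 485509 nucleosomes and reached down to a score of 1.7, where the other lists held 250986 to 292966 and stopped between 50.1 and 51.3. Nucleosomes with a score of 52 or more were used from every list, which left between 245431 and 281957, and 250282 in Hnf4a knockout. Ratios of nucleosome numbers were divided by the ratio of the total length each list covered. Every knockout had 1 library, so no difference between conditions has a replicate check, and no p-value was computed. Intervals are 95% and cover counting error only.

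The libraries gave sets of different size and kind. Of library 1, 10537 peaks had no overlapping peak in library 2, 8025 of these had no HNF4A peak, and 42.9% (41.8 to 44.0) of the 8025 lay in marked chromatin. Of library 2, 5845 had no overlapping peak in library 1, 5615 of these had no HNF4A peak, and 11.8% (11.0 to 12.7) of the 5615 were marked. Among the 900 CDX2 sites called in both libraries and free of HNF4A, 546 or 60.7% (57.4 to 63.9) were marked. Most single-library peaks of library 2 thus lay outside H3K4me2, while over 4 in 10 of library 1 lay within it.

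Marked single-library peaks of library 2 were mostly near the score of 50 at which the list begins. Of those in library 1, 22.6% had scores of 70 to 90 and 26.1% had 90 or more. Median scores were close to those of the whole lists, 70.42 and 57.99. In library 1 scores ran from 50 to 560.98 with a median of 69.12, and widths had a median of 593 bp. In library 2 scores ran from 50.07 to 384.57 with a median of 57.53, and the median width was 268 bp. The marked sites of both libraries had a median score of 124.745. Wild-type nucleosomes within 1 kb averaged 3.53 at library 1 peaks (median 3, at most 11) and 2.71 at library 2 peaks (median 2, at most 10). The nearest wild-type nucleosome centre lay within 100 bp of the peak centre at 49.9% of library 1 peaks and 40.3% of library 2 peaks, and over 500 bp away at 7.32% and 27.6%.

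Just inside the 1 kb limit of the rule, 37 library 1 peaks had their nearest wild-type nucleosome at 900 to 1000 bp, with a median score of 67.66, and just outside, 35 had it at 1000 to 1100 bp, with a median score of 61.9. The corresponding library 2 peaks numbered 30 (median score 56.625) and 31 (57.53). CDX2 was called again in Hnf4a knockout at 0 of the 37 and 1 of the 35 in library 1, and at 0 of the 30 and 2 of the 31 in library 2.

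Many of the peaks lay near other bound sites without overlapping them. An HNF4A peak was centred within 5 kb of 35.5% of library 1 peaks and 30.6% of library 2 peaks, and within 1 kb of 9.67% and 11.5%. A peak of the other CDX2 library was centred within 5 kb of 8.02% of library 1 peaks and 19.3% of library 2 peaks. Unmarked single-library peaks were farther from HNF4A, with 9.47% of library 1 and 6.10% of library 2 within 5 kb.

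CDX2 was called again in villi lacking Hnf4a at few of these peaks. In library 1 a knockout CDX2 peak overlapped 160 of 3443, or 4.65% (3.97 to 5.40), and in library 2 it overlapped 52 of 663, or 7.84% (5.91 to 10.2). Over the whole lists, single and shared peaks together, the share was 8.6% of library 1 and 11.6% of library 2. Both sets lay below their own list, but the rule had already removed every peak called in the other wild-type library. That choice by itself favours a low share at these peaks and a high one at sites of both libraries. Between the wild-type lists too, 86.9% of all library 1 peaks and 78.6% of all library 2 peaks had no overlapping peak. The share called again in Hnf4a knockout was higher by 3.20 percentage points (1.23 to 5.59) at library 2 peaks than at library 1 peaks. Where CDX2 had been called in both wild-type libraries, in marked chromatin without HNF4A, it was called again at 213 of 546 sites, or 39.0% (34.9 to 43.2). That exceeded library 1 single peaks by 34.4 points (30.3 to 38.6) and library 2 single peaks by 31.2 points (26.6 to 35.7). Scores differ between these sets: 72.5% of the sites of both libraries, taking the higher of their scores, had 90 or more, against 26.1% of library 1 and 5.28% of library 2 peaks. Among those with 90 or more, CDX2 was called again at 48.2% (43.2 to 53.3) of the sites of both libraries. This exceeded library 1 peaks of such scores by 38.2 points (32.9 to 43.5), and library 2 peaks by 8.23 points (-8.90 to 23.5), which is within counting error. A peak that is not called is not shown to be unbound.

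Over all scores, marked peaks were called again at a higher share than unmarked ones within each library. Unmarked single-library peaks were called again at 133 of 4582 in library 1, or 2.90% (2.44 to 3.43), and at 179 of 4952 in library 2, or 3.61% (3.11 to 4.17). The marked peaks lay above these by 1.74 points (0.905 to 2.62) in library 1 and by 4.23 points (2.33 to 6.58) in library 2. Median scores were also higher at the marked peaks, at 69.12 against 63.98 in library 1 and 57.53 against 56.58 in library 2, and at like scores the difference did not hold throughout. In library 1 it was beyond counting error at scores of 55 to 60, by 2.44 points (0.6995 to 4.67), and at 90 or more, by 4.04 points (1.45 to 6.62). At 70 to 90 the unmarked share was the higher, 4.25% against 3.22%, within counting error (-1.03 points, -2.81 to 0.812). In library 2 the marked share was higher in all 5 score bins, beyond counting error at 70 to 90 alone, by 8.96 points (3.23 to 17.4). Marked single-library peaks that did hold HNF4A were called again at 4.98% in library 1 and 4.21% in library 2. They differed from the peaks without HNF4A by 0.336 points (-0.766 to 1.49) and -3.63 points (-6.72 to 0.647), both within counting error.

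The peaks called again had higher wild-type scores on median, with much overlap. Their median score was 101.87 against 68.52 for the rest in library 1, and 70.075 against 56.88 in library 2. In library 1 the share was 1.77% at scores of 50 to 55, 3.71% at 55 to 60, 2.48% at 60 to 70, 3.22% at 70 to 90 and 10.0% (8.12 to 12.1) at 90 or more. Library 2 shares were 3.56%, 5.33%, 6.38%, 12.9% and 40.0% (23.9 to 57.9), the last from 14 of 35 peaks. Library 1 stayed low up to 90, while library 2 climbed from step to step. The difference between libraries was within counting error below 60, at 1.79 points (-0.426 to 5.18) and 1.61 points (-1.68 to 6.31). It was 3.90 points (0.576 to 9.28) at 60 to 70, 9.69 points (4.12 to 18.1) at 70 to 90 and 30.0 points (15.4 to 46.5) at 90 or more. Equal scores in the libraries need not stand for equal enrichment.

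**Figure D1:**
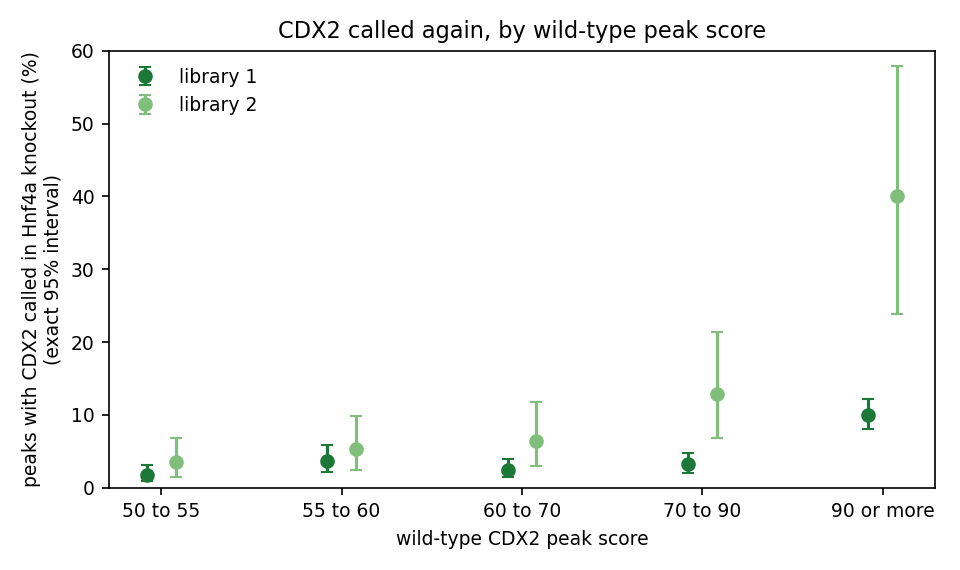
Share of marked single-library CDX2 peaks (vertical axis, percent) at which CDX2 was called again in Hnf4a knockout, by wild-type CDX2 peak score (horizontal axis); points are shares and bars exact 95% intervals, dark green for library 1 and light green for library 2. Library 2 reaches 40.0% at scores of 90 or more, where library 1 is at 10.0%.

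Single sites show the range. Coordinates are of build mm9, counted from 1. Chosen by rank of score within each class, the strongest library 1 peak called again was chr4:116229001-116229828, with a score of 560.98 in wild type and 81.48 in Hnf4a knockout. It held 8 nucleosomes in wild type, 8 in Cdx2 knockout, 6 in Hnf4a knockout, and 7 and 8 in the libraries titled Cdx2-Cdx1 and Cdx2-Hnf4a. H3K4me2 was thus called there at nearly the same number in all 5 lists. The next was chr7:90775146-90775956, with 529.13 in wild type and 81.28 in knockout, and 2, 2, 3, 4 and 4 nucleosomes in the same order of lists. Both had a score under 100 in the knockout.

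The highest library 1 scores without a knockout call belonged to very wide peaks. They were chr9:2999867-3003170 (score 513.78, 3304 bp), chr17:13500368-13503040 (386.39, 2673 bp) and chr7:38967941-38972022 (376.88, 4082 bp), all several times the median width of 593 bp. Nucleosomes numbered 1, 2, 0, 0 and 0 at the first, in the order wild type, Cdx2 knockout, Hnf4a knockout, titled Cdx2-Cdx1 and titled Cdx2-Hnf4a. At the second they numbered 4, 4, 4, 3 and 2, and at the third 8, 6, 7, 6 and 3.

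The strongest library 2 peak, chr2:171544410-171544724, was called again with nearly the same score, 384.57 in wild type and 335.08 in Hnf4a knockout. Its H3K4me2 count was 4 in wild type, 0 in Cdx2 knockout, 3 in Hnf4a knockout, 1 in the library titled Cdx2-Cdx1 and 0 in that titled Cdx2-Hnf4a. This site combined a lasting CDX2 call without Hnf4a with few or no called nucleosomes in each list lacking Cdx2. The next was chr9:31259680-31260070, with scores of 250.13 and 88.03 and 3, 1, 2, 2 and 1 nucleosomes. Of the 5 strongest called again in library 2, 2 lay on chromosome Y and were wide, chrY:2850282-2854766 (4485 bp, 221.77 and 116.54) and chrY:2889957-2893213 (3257 bp, 166.23 and 157.08). Those not called again were led by chr1:66926877-66927105 (154.12), with 1 nucleosome in wild type and none in Cdx2 knockout or Hnf4a knockout.

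HNF4A appeared at few of the peaks when Cdx2 was deleted. The rule excluded wild-type HNF4A peaks, so an HNF4A call in Cdx2 knockout is a call not made in wild type. There were 96 such peaks in library 1, or 2.79% (2.26 to 3.39), and 8 in library 2, or 1.21% (0.522 to 2.36). Over all peaks without wild-type HNF4A, marked or not, the share was 1.25% in library 1 and 0.305% in library 2, so the marked single-library peaks lay above both. Unmarked single-library peaks had 5 of 4582, or 0.109% (0.0354 to 0.254), in library 1 and 3 of 4952, or 0.0606% (0.0125 to 0.177), in library 2. The differences of marked from unmarked peaks were 2.68 points (2.16 to 3.29) and 1.15 points (0.541 to 2.30). Marked CDX2 sites of both libraries without HNF4A had 11 of 546, or 2.01% (1.01 to 3.58). They differed from library 1 peaks by -0.774 points (-1.85 to 0.861) and from library 2 peaks by 0.808 points (-0.649 to 2.47). Both differences are within counting error, so such calls were not particular to single-library peaks. Library 2 minus library 1 was -1.58 points (-2.43 to -0.322) by overlap. That difference was within counting error where the knockout peak centre had to lie within 500 bp, at 3.17% against 3.28% (-0.115 points, -1.38 to 1.60), and with peaks set to 250 bp, at 2.51% against 3.10% (-0.585 points, -1.68 to 0.925). The median width of the peaks, which sets how easily they overlap another peak, was 593 bp in library 1 and 268 bp in library 2.

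Most of those HNF4A calls had low scores. The HNF4A score in Cdx2 knockout had a median of 65.875 at library 1 peaks (50.85 to 157.16) and 59.24 at library 2 peaks (50.36 to 282.52), against 81.15 over the whole knockout list. In library 1 the CDX2 score had a median of 69.1 with such a call and 69.12 without, and in library 2 it had 66.17 at the 8 with a call and 57.36 without. The strongest CDX2 peak among them, chr3:95021145-95022081, had a CDX2 score of 236.29 and an HNF4A score of 112.9 in Cdx2 knockout, with 6, 5, 7, 6 and 8 nucleosomes. The next, chr1:157285319-157286157 (180.28, HNF4A 75.58), held 2 nucleosomes in each of the 5 lists, and chr11:113672141-113673190 (163.5, HNF4A 72.61) held 3 in each. H3K4me2 was thus called alike in all lists at these latter sites. Over the 96 peaks the scaled ratio of nucleosomes in Cdx2 knockout to Hnf4a knockout was 0.902 (0.787 to 1.03), which was 1.18 times (1.03 to 1.35) that of the other library 1 peaks.

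H3K4me2 around the peaks was lower in Cdx2 knockout than in Hnf4a knockout. In library 1 the nucleosomes within 1 kb numbered 12145 in wild type, 10117 in Cdx2 knockout and 12291 in Hnf4a knockout, means of 3.53, 2.94 and 3.57 per peak. In library 2 they numbered 1794, 1618 and 1794, means of 2.71, 2.44 and 2.71. The scaled ratio of Cdx2 knockout to Hnf4a knockout, which does not use the wild-type list by which the peaks were chosen, was 0.770 (0.750 to 0.790) in library 1 and 0.844 (0.788 to 0.903) in library 2. Both lie below 1 by more than counting error. In bulk villi, a mark carried by fewer cells and less of it per cell cannot be told apart. This direction needs the common score minimum. With the lists as deposited, in which the Hnf4a knockout list goes far lower, it reversed. The ratios were then 1.02 (1.0002 to 1.05) and 1.08 (1.01 to 1.15). With the 240000 highest-scoring nucleosomes of each list the ratios were 0.768 and 0.851.

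The lower ratio was not particular to CDX2 peaks, and in library 2 it was not distinguishable from that at HNF4A sites. At 13802 marked HNF4A peaks without any CDX2 peak it was 0.856. Library 1 peaks stood at 0.899 times this ratio (0.874 to 0.926), and library 2 peaks at 0.985 times (0.920 to 1.05). The 546 marked sites of both libraries had the lowest ratio, 0.636, which was 0.826 times (0.765 to 0.891) that of library 1 peaks and 0.754 times (0.683 to 0.832) that of library 2 peaks. Library 1 over library 2 gave 0.913 (0.849 to 0.981). The order from lowest to highest was thus sites of both libraries, library 1 peaks, then library 2 peaks beside HNF4A sites, the last pair not separated. With the lists as deposited the same order held at higher values, 0.816, 1.02, 1.08 and 1.18, but library 1 and library 2 peaks were no longer separated (0.951, 0.890 to 1.02) and library 2 peaks lay below HNF4A sites (0.912, 0.857 to 0.971). Of these 4 sets, only the sites of both libraries were then below 1.

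Peaks with and without HNF4A did not differ in this ratio beyond counting error in library 1. Marked single-library peaks holding HNF4A had 0.761 there, 0.989 times (0.951 to 1.03) that of the peaks without HNF4A. In library 2 the 190 such peaks had 0.730, which was 0.865 times (0.763 to 0.982). The sets did differ in how often no nucleosome was left in Cdx2 knockout, at 11.2% (9.93 to 12.5) of library 1 peaks with HNF4A against 20.3% (18.9 to 21.7) without. They had 4.40 and 3.53 wild-type nucleosomes per peak to begin with.

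The ratios to wild type are descriptions, since each peak was required to have a wild-type nucleosome and all 4 ratios share the wild-type library. In library 1 they were 0.780 for Cdx2 knockout, 1.01 for Hnf4a knockout, 0.780 for the library titled Cdx2-Cdx1 and 0.703 for that titled Cdx2-Hnf4a. In library 2 they were 0.844, 1.00, 0.846 and 0.789. The 3 lists lacking Cdx2 were thus lower than wild type in both libraries. This was not particular to these peaks. Marked HNF4A peaks without CDX2 had 0.856, 0.803 and 0.703 for Cdx2 knockout, titled Cdx2-Cdx1 and titled Cdx2-Hnf4a. Library 1 peaks lay below those sites beyond counting error in Cdx2 knockout alone, at 0.911 times (0.885 to 0.938). Library 2 peaks lay below them beyond counting error in none, and above them for titled Cdx2-Hnf4a, at 1.12 times (1.05 to 1.201). In library 2 the list titled Cdx2-Cdx1 was within counting error of wild type without scaling, at 0.973 (0.911 to 1.04), and with no wild-type nucleosome needed, at 0.982 (0.921 to 1.05). The Hnf4a knockout list was level with it at the common score minimum and lower, at 0.761 and 0.780, with the lists as deposited.

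The double knockouts differed from each other at these peaks, as they did at HNF4A sites without CDX2. In library 1 the scaled ratio of the library titled Cdx2-Hnf4a to that titled Cdx2-Cdx1 was 0.9005 (0.876 to 0.925). In library 2 it was 0.932 (0.871 to 0.998), and at HNF4A sites without CDX2 it was 0.876. Library 1 and library 2 peaks stood at 1.03 times (0.997 to 1.06) and 1.06 times (0.994 to 1.14) the latter, both within counting error. The library titled Cdx2-Cdx1 did not differ from the Cdx2 single knockout beyond counting error, with a scaled ratio between them of 1.00 in library 1 (0.974 to 1.03) and 1.00 in library 2 (0.936 to 1.07). The library titled Cdx2-Hnf4a lay below the single knockout by more than counting error in library 1, at 0.901 (0.876 to 0.927), and not in library 2, at 0.934 (0.872 to 1.00). At HNF4A sites without CDX2 the same ratio was lower, 0.821, and library 1 and library 2 peaks stood at 1.097 times (1.06 to 1.13) and 1.14 times (1.06 to 1.22) that value. Because the labels conflict, which gene besides Cdx2 is missing in either library cannot be told apart.

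**Figure D2:**
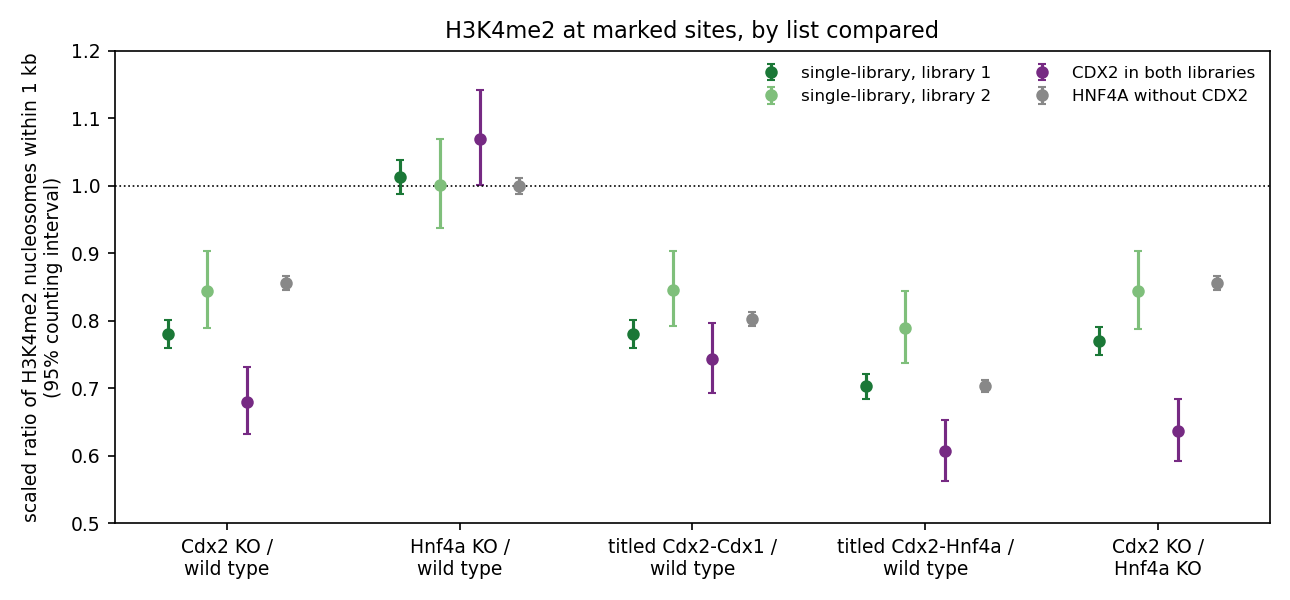
Scaled ratios of H3K4me2 nucleosomes within 1 kb of the site centre (vertical axis) for 5 pairs of lists (horizontal axis), at marked single-library CDX2 peaks of library 1 and library 2, marked CDX2 sites of both libraries without HNF4A, and marked HNF4A peaks without CDX2; bars are 95% counting intervals and the dotted line is 1. For Cdx2 knockout over Hnf4a knockout the points are 0.770, 0.844, 0.636 and 0.856 in that order.

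The H3K4me2 difference reached across the window and, in library 1, was larger within 600 bp of the CDX2 peak centre than beyond. The scaled number of wild-type nucleosomes per library 1 peak was 0.506 in the first 100 bp from the centre on either side, 0.552 in the next 100 bp and 0.212 in the last. In Cdx2 knockout these were 0.395, 0.398 and 0.179, and in Hnf4a knockout 0.480, 0.552 and 0.211. At library 2 peaks the wild-type values were 0.404, 0.345 and 0.241, those of Cdx2 knockout 0.349, 0.253 and 0.191, and those of Hnf4a knockout 0.382, 0.347 and 0.222. The Hnf4a knockout profile thus lay close to that of wild type, and the profiles of lists lacking Cdx2 lay below both. In library 1 the ratio of Hnf4a knockout to wild type was above 1 beyond counting error from 300 to 600 bp, at 1.06 (1.01 to 1.11). It was 0.979 (0.942 to 1.02) under 300 bp and 1.02 (0.968 to 1.06) from 600 bp to 1 kb. The ratio of Cdx2 knockout to Hnf4a knockout in library 1 was 0.757 (0.727 to 0.789) under 300 bp, 0.733 (0.698 to 0.770) from 300 to 600 bp and 0.828 (0.788 to 0.869) from 600 bp to 1 kb. In library 2 it was 0.802, 0.845 and 0.887, with overlapping intervals. Marked HNF4A peaks without CDX2 had 0.872, 0.821 and 0.870, and marked CDX2 sites of both libraries 0.677, 0.566 and 0.642. The step from 300 to 600 bp was thus the lowest in these sets too, as in library 1.

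**Figure D3:**
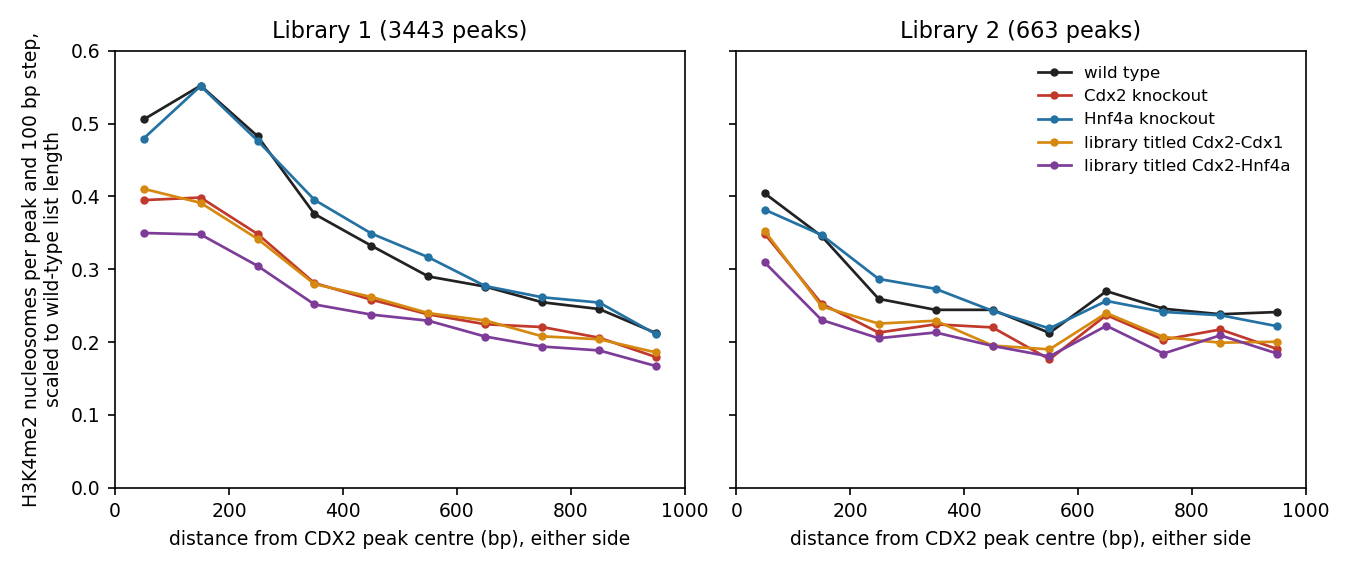
Called H3K4me2 nucleosomes per peak and 100 bp step, scaled to the length of the wild-type list (vertical axis), by distance from the CDX2 peak centre on either side in bp (horizontal axis), for 5 lists at library 1 peaks (left) and library 2 peaks (right). At 100 to 200 bp in library 1 wild type and Hnf4a knockout are both at 0.552 and Cdx2 knockout is at 0.398.

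Stronger CDX2 peaks had a lower ratio. In library 1 the ratio of Cdx2 knockout to Hnf4a knockout was 0.858 (0.808 to 0.912) at scores of 50 to 55, 0.826 at 55 to 60, 0.783 at 60 to 70, 0.749 at 70 to 90 and 0.692 (0.657 to 0.730) at 90 or more. The highest bin over the lowest was 0.807 (0.745 to 0.874). Library 2 ratios were 0.898 (0.799 to 1.01), 0.842, 0.846, 0.796 and 0.633 (0.457 to 0.872), and the highest over the lowest was 0.705 (0.507 to 0.981). The weakest library 2 peaks were within counting error of 1, and the strongest, 35 in number, were as low as sites of both libraries. Within each score bin the libraries did not differ beyond counting error, with library 1 over library 2 between 0.925 and 1.09 and every interval including 1. The share of peaks with a score of 90 or more was 26.1% in library 1 and 5.28% in library 2.

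**Figure D4:**
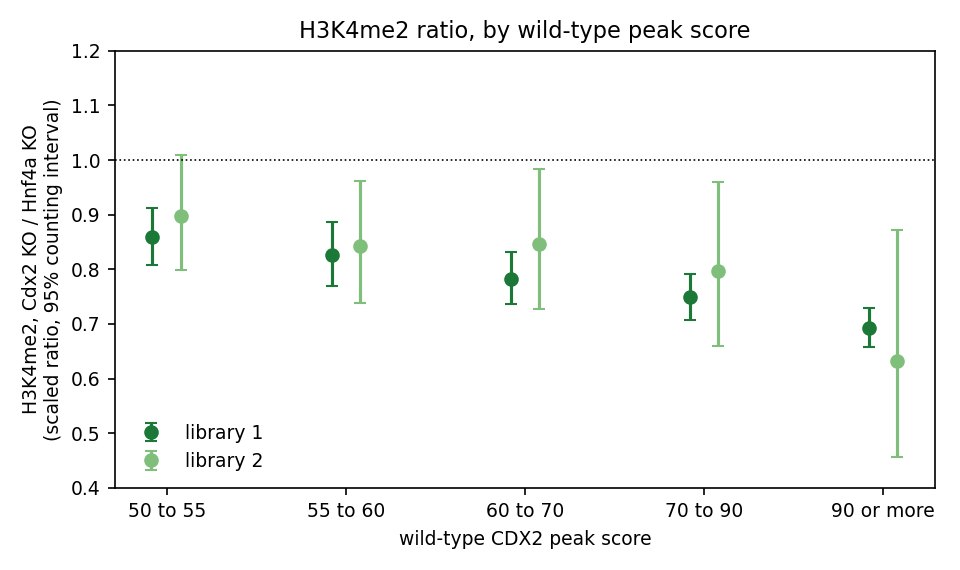
Scaled ratio of H3K4me2 nucleosomes in Cdx2 knockout to Hnf4a knockout (vertical axis) by wild-type CDX2 peak score (horizontal axis) for library 1 (dark green) and library 2 (light green), with 95% counting intervals and a dotted line at 1. Library 1 goes from 0.858 to 0.692 and library 2 from 0.898 to 0.633.

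Sparsely marked peaks had the lowest ratio. At library 1 peaks with 1 wild-type nucleosome it was 0.484 (0.434 to 0.538), with 2 it was 0.594, with 3 to 4 it was 0.712, with 5 to 6 it was 0.857, and with 7 or more it was 0.927 (0.881 to 0.976). At HNF4A sites without CDX2 the same steps gave 0.693, 0.744, 0.802, 0.885 and 0.935, which is the same direction over a narrower range. Library 1 peaks over HNF4A sites gave 0.698 (0.619 to 0.787), 0.799 (0.730 to 0.875) and 0.888 (0.838 to 0.940) at up to 4 wild-type nucleosomes, and 0.968 (0.918 to 1.02) and 0.991 (0.938 to 1.05) above. The difference of library 1 peaks from HNF4A sites was thus seen at lightly marked peaks and was within counting error at heavily marked ones. In library 2 the ratios were 0.706, 0.677, 0.889, 0.919 and 0.969, each within counting error of HNF4A sites. Library 1 over library 2 was 0.685 (0.557 to 0.841) at 1 wild-type nucleosome and 0.801 (0.698 to 0.920) at 3 to 4, and included 1 in the other 3 steps.

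Peaks called again in Hnf4a knockout did not differ in H3K4me2 from the rest beyond counting error. The ratio of Cdx2 knockout to Hnf4a knockout was 0.749 (0.664 to 0.846) at the 160 called again in library 1 and 0.771 at the other peaks, 0.972 times (0.860 to 1.098). In library 2 it was 0.738 (0.582 to 0.934) at the 52 and 0.854 at the others, 0.864 times (0.680 to 1.098). Distance to HNF4A also left the ratio within a narrow range in library 1. It was 0.802 with an HNF4A centre within 1 kb, 0.751 at 1 to 5 kb, 0.770 at 5 to 20 kb and 0.775 beyond 20 kb. In library 2 these were 0.799, 0.795, 0.891 and 0.859.

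At single peaks the difference of Cdx2 knockout from Hnf4a knockout was mostly 1 or 2 nucleosomes. In library 1, 1701 peaks had fewer in Cdx2 knockout, 988 the same number and 754 more, which is 49.4%, 28.7% and 21.9%. In library 2 the numbers were 250, 232 and 181, or 37.7%, 35.0% and 27.3%. Over all 22890 marked CDX2 peaks and HNF4A peaks without CDX2, 47% had fewer and 23.7% more. Library 1 was therefore close to this background, and library 2 had a smaller share with fewer. A difference of 3 or more fewer was found at 11.8% of library 1 and 7.84% of library 2 peaks, and of 3 or more in the other direction at 1.89% and 3.32%. Marked HNF4A peaks without CDX2 had 7.56% and 2.93% in these directions, close to library 2. Marked CDX2 sites of both libraries had 19.0% and 0.733%. These numbers are not scaled, and the Cdx2 knockout list covered 1.07 times the wild-type length.

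**Figure D5:**
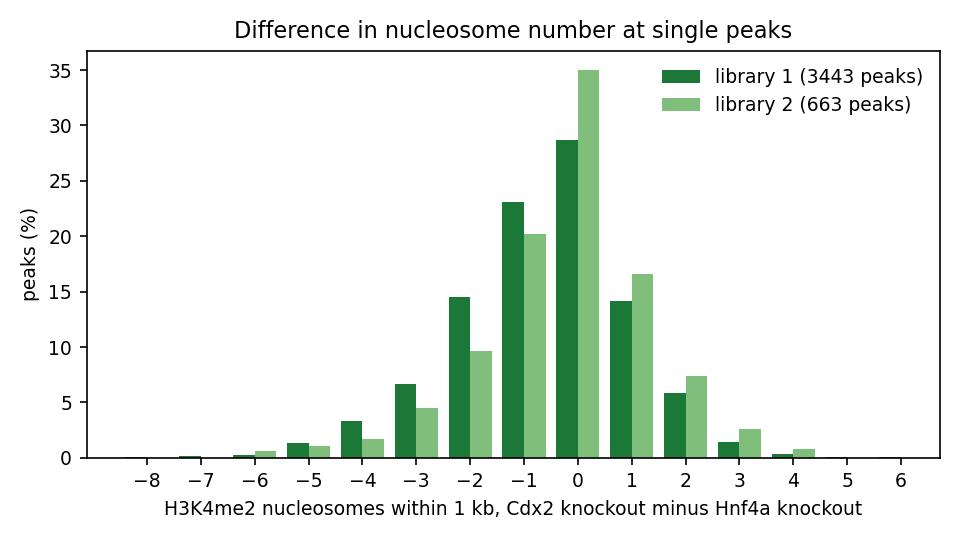
Percent of marked single-library CDX2 peaks (vertical axis) by the number of H3K4me2 nucleosomes within 1 kb in Cdx2 knockout minus that in Hnf4a knockout (horizontal axis, unscaled), dark green for library 1 and light green for library 2. The tallest bars are at 0, with 28.7% and 35.0%, and library 1 has the heavier left side.

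Complete absence of called nucleosomes was counted at peaks with at least 1 wild-type nucleosome of score 52 or more, 3397 in library 1 and 645 in library 2. None was left within 1 kb in Cdx2 knockout at 689 library 1 peaks, or 20.3% (18.9 to 21.7), and at 134 library 2 peaks, or 20.8% (17.7 to 24.1). The background over all marked CDX2 peaks and HNF4A peaks without CDX2 was 12.7%, so both sets lay above it. HNF4A sites without CDX2 had 9.22%, and marked CDX2 sites of both libraries had 29.0%. In Hnf4a knockout the share was 4.95% (4.24 to 5.73) in library 1 and 10.9% (8.56 to 13.5) in library 2, against a background of 4.12%. Library 1 minus library 2 was -5.91 points (-8.63 to -3.60) there and -0.493 points (-4.05 to 2.77) in Cdx2 knockout. In both libraries the share was higher in Cdx2 knockout than in Hnf4a knockout, by an amount that the settings move. With the lists as deposited the Cdx2 knockout shares were 20.5% and 21.1% and the Hnf4a knockout shares 0.755% and 3.77%. With 3 wild-type nucleosomes needed they were 6.50% and 5.05%, against 0.679% and 1.08%.

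These shares moved with the wild-type number, which was lower at library 2 peaks. At peaks with 1 wild-type nucleosome, the share with none in Hnf4a knockout was 17.8% in library 1, 24.6% in library 2 and 20.4% at HNF4A sites. In Cdx2 knockout the same peaks had 51.9%, 37.1% and 34.5%. Library 1 stood above HNF4A sites by 17.4 points (13.3 to 21.5), and library 2 did so by 2.58 points (-3.63 to 9.16), which is within counting error. At 3 to 4 wild-type nucleosomes the shares in Cdx2 knockout were 10.7%, 7.59% and 4.13%, and in Hnf4a knockout 1.42%, 2.07% and 0.868%. In Cdx2 knockout library 2 stood above HNF4A sites beyond counting error at 2 wild-type nucleosomes, by 8.89 points (2.29 to 16.9). It also did so at 3 to 4, by 3.46 points (0.0920 to 8.98), and at 7 or more, by 2.03 points (0.0407 to 12.0). At 5 to 6 the difference was within counting error, 0.441 points (-0.604 to 5.70).

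Of the double knockouts, the library titled Cdx2-Cdx1 lay above its background in both libraries. That titled Cdx2-Hnf4a lay above its own beyond counting error in library 1 alone. No nucleosome was left in the library titled Cdx2-Cdx1 at 17.1% of library 1 and 16.9% of library 2 peaks (background 11.5%). In the library titled Cdx2-Hnf4a the shares were 25.1% (23.7 to 26.6) and 24.96% (21.7 to 28.5). The background of 22% lies below the library 1 interval and within that of library 2. Library 1 differed from library 2 by 0.204 points (-3.12 to 3.20) and 0.179 points (-3.59 to 3.69). Peaks with none in all 3 lists lacking Cdx2 and at least 1 in Hnf4a knockout numbered 352 in library 1, or 10.4% (9.36 to 11.4), and 52 in library 2, or 8.06% (6.08 to 10.4), against a background of 5.97%. The reverse, none in Hnf4a knockout and at least 1 in each list lacking Cdx2, was found at 39 and 16 peaks, or 1.15% and 2.48%, against 0.873%. All 4 knockout lists were empty at 2.24% and 3.10%, against 1.6%. HNF4A sites without CDX2 had 3.78% empty in all 3 lists lacking Cdx2, below library 1 by 6.58 points (5.54 to 7.69) and below library 2 by 4.28 points (2.39 to 6.66).

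Sites were also named by the size of the difference, and ties went to the higher CDX2 score. The library 1 sites named here scored above the library 1 median of 69.12. This is partly an outcome of that order, since 7 library 1 peaks tied at a difference of -7. At chr4:124483388-124484061 (score 94.85) there were 8 nucleosomes in wild type, 0 in Cdx2 knockout, 8 in Hnf4a knockout, 1 in the library titled Cdx2-Cdx1 and 0 in that titled Cdx2-Hnf4a. At chr7:106841957-106842315 (score 87.07) the numbers were 6, 0, 8, 0 and 0 in the same order. At chr1:130220744-130221224 (score 116.1) they were 8, 0, 7, 0 and 0, and CDX2 was called there in Hnf4a knockout with a score of 56.9. Each of these had at most 1 called nucleosome in every list lacking Cdx2 and 7 or 8 in Hnf4a knockout. At chr9:64424635-64425399 (score 160.19) the numbers were 6, 0, 7, 1 and 0, with the nearest HNF4A peak over 50 kb away.

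Library 2 held sites of the same kind, most at lower CDX2 scores. At chr7:111730075-111730331 (score 56.58) there were 8 nucleosomes in wild type, 0 in Cdx2 knockout, 6 in Hnf4a knockout, 1 in the library titled Cdx2-Cdx1 and 0 in that titled Cdx2-Hnf4a. At chr12:96932986-96933277 (score 53.92) the numbers were 6, 0, 5, 0 and 0, and at chr17:85085973-85086243 (score 53.08) they were 2, 0, 6, 0 and 0. The chr12 and chr17 peaks were close to the score of 50 at which the list begins. The chr7 peak was near the library 2 median of 57.53. At chr19:11209878-11210132 (score 125.58) the numbers were 4, 0, 5, 1 and 0, and CDX2 was not called again in Hnf4a knockout. The site chr11:78736067-78736463 (score 51.9) split the double knockouts, with 9, 2, 8, 7 and 1.

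Some peaks had more H3K4me2 nucleosomes in Cdx2 knockout than in Hnf4a knockout. In library 1, chr10:80260918-80261794 (score 76.89) held 8 nucleosomes in wild type, 9 in Cdx2 knockout, 3 in Hnf4a knockout, 3 in the library titled Cdx2-Cdx1 and 7 in that titled Cdx2-Hnf4a. At chr13:4233869-4234248 (score 100.6) the numbers were 5, 9, 4, 8 and 8. In library 2, chr8:108860376-108860872 (score 61.01) held 6, 8, 4, 5 and 8, and chr3:107828926-107829273 (score 60.27) held 4, 7, 3, 5 and 6. The first library 1 site was low in Hnf4a knockout and in 1 double knockout, while chr13:4233869-4234248 was higher in all 3 lists lacking Cdx2. Differences in this direction were smaller and fewer than those in the other.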

How the data were processed

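Each factor peak has a score, deposited by the authors without a definition, and a name holding the word MACS. Nucleosome scores are 10 times the −log10 of a p-value, per the file headers. The build is mm9, per the submitters' processing notes. Which aligner and control were used, and read totals, were not given in the sources used here. Groups came from the titles, and the input sample was not analysed here.

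Overlap meant 1 bp or more. Nucleosomes with a score of 52 or more, centred within 1 kb of a peak centre, were counted and scaled by the length each list covers. Shares have exact Clopper-Pearson 95% intervals, differences of shares Newcombe intervals, and ratios exact binomial intervals. A ratio of ratios has a log-scale interval. These treat nucleosomes and peaks as independent, although neighbours share a site, so they are too narrow. Backgrounds counted the described peaks too. The peaks, lists and comparisons were chosen with earlier results of these data known. Sites were named by rank within each library. These were the 5 highest scores called again and not called again, and the 3 highest with HNF4A in Cdx2 knockout. Also named were the 5 largest differences of Hnf4a over Cdx2 knockout and 3 of the reverse, ties going to the higher CDX2 score. The last were the 3 with most nucleosomes among those empty in all 3 lists lacking Cdx2. Only some of these sites are printed. Genes and sequences at the sites, and marker genes of the tissue, were not analysed here, since no mm9 genome or annotation was used. The computations were tested on simulated data and ran in Python 3.11.15 with NumPy 2.4.6, pandas 2.3.3 and SciPy 1.17.1.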

Additional observations from a re-analysis of the deposited data

How the results depend on the processing

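Direction was reversed under 1 setting. With the nucleosome lists as deposited the ratio of Cdx2 to Hnf4a knockout was 1.02 (1.0002 to 1.05) in library 1 and 1.08 (1.01 to 1.15) in library 2. Both lie above 1 by more than counting error. The ratio of Hnf4a knockout to wild type was then 0.761 and 0.780. The deposited Hnf4a knockout list reaches lower scores. In the other settings run, the ratio of Cdx2 to Hnf4a knockout was below 1 in both libraries. Of 108 recomputed values, 65 moved by less than their interval, 41 by more, and 2 reversed; the cause was not tested. Without scaling, library 1 ratios were 0.833 (Cdx2 knockout to wild type), 0.898 (titled Cdx2-Cdx1), 0.805 (titled Cdx2-Hnf4a) and 0.823 (Cdx2 to Hnf4a knockout), and library 2 ratios 0.973 (titled Cdx2-Cdx1) and 0.904 (titled Cdx2-Hnf4a). With a window of 500 bp, library 1 ratios to wild type were 0.742, 0.987, 0.740 and 0.657 for Cdx2 knockout, Hnf4a knockout and the libraries titled Cdx2-Cdx1 and Cdx2-Hnf4a, and the last was 0.733 in library 2. With the 240000 highest-scoring nucleosomes the double knockouts gave 0.815 and 0.728 in library 1. With no wild-type nucleosome needed, ratios to wild type in library 1 were 1.05 (Hnf4a knockout), 0.814 (titled Cdx2-Cdx1) and 0.732 (titled Cdx2-Hnf4a), and in library 2 0.916 (Cdx2 knockout), 1.099, 0.982 and 0.911. Chosen after seeing the data, a nucleosome in Hnf4a knockout was needed in place of wild type (3606 and 722 peaks): Hnf4a knockout to wild type was then 1.07 and 1.15, the library titled Cdx2-Cdx1 0.803 and 0.911, and Cdx2 to Hnf4a knockout 0.742 and 0.775. Also chosen after seeing the data, peaks over 5 kb from CDX2 sites of both libraries gave 0.773 and 0.848. The order of sets under the lists as deposited was likewise chosen after seeing the data.

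For CDX2 called again in Hnf4a knockout, knockout peaks of score 60 or more gave 2.82% and 5.58%, and CDX2 peaks of score 70 or more 6.86% and 20.3%. For HNF4A in Cdx2 knockout, a knockout score of 60 or more gave 1.68% in library 1, 3 wild-type nucleosomes 3.59% in library 1, centres within 500 bp 3.17% in library 2 (3.28% in library 1), and peaks set to 250 bp 2.51% in library 2 (3.10% in library 1). Ignoring the other CDX2 library, which adds the peaks shared with it, CDX2 was called again at 9.35% of 3990 library 1 peaks and 22.0% of 1248 library 2 peaks; the library 2 ratios were 0.768 (Cdx2 knockout to wild type), 0.6996 (titled Cdx2-Hnf4a to wild type) and 0.743 (Cdx2 to Hnf4a knockout). Of 24 recomputed shares of emptied peaks, 12 moved beyond their interval. No paired analysis was possible because each knockout group has 1 library and shares fewer than 2 replicate numbers with wild type. Depth is unknown, so weak sites missed in a shallower library cannot be told apart from unbound ones.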

Other observations

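The sex chromosomes held few of the peaks. Chromosome X had 41 marked single-library peaks in library 1 and 3 in library 2. Chromosome Y had 0 in library 1 and 7 in library 2. Among unmarked single-library peaks without HNF4A, chromosome X had 44 of 4582 in library 1 and 18 of 4952 in library 2. Chromosome Y had 2 and 10 of these.

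Marked single-library peaks of library 1 within 5 kb of a CDX2 site of both libraries had a scaled ratio of H3K4me2 nucleosomes in Cdx2 knockout to Hnf4a knockout of 0.701 (0.617 to 0.798). At 5 to 50 kb it was 0.722 (0.675 to 0.772), and over 50 kb, where 2748 of the 3443 lay, it was 0.784 (0.761 to 0.807). In library 2 the values were 0.759 (0.549 to 1.05), 0.801 (0.664 to 0.965) and 0.856 (0.794 to 0.923), the first from 26 peaks. Each set of intervals overlaps between the nearest and the farthest step.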
